A study of Mus musculus with 2 samples.

Results

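A set of 72 genes of the mitotic spindle checkpoint, the kinetochore and related machinery of chromosome segregation was examined in Neuro2a cells, a mouse neuroblastoma line. Membership was set by gene symbol and used no signal, although the list was drawn up with earlier results of these data known. The set holds centromere proteins (Cenp), checkpoint genes (Bub, Mad, Ttk), Aurora and Polo-like kinases, Cdc25 phosphatases, the anaphase-promoting complex (Anapc, Cdc20), condensin, the cell division cycle associated (Cdca) genes and a few further mitotic genes. They were read by 164 of 45101 probe sets, and are 72 of the 18193 genes with a probe set assigned to a single symbol. The cells had been transfected with an siRNA against Tmem132a (mKIAA1583), which encodes a single-pass membrane protein, or with a non-specific control siRNA. Each group was 1 RNA sample on 1 Affymetrix Mouse Genome 430 2.0 array, and the time after transfection is not stated in the labels. No value below therefore has a replicate error, no test between the groups was possible, and the number of arrays limits the precision.

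Chromosome segregation depends on kinetochores, protein assemblies built on centromeric chromatin that hold spindle microtubules. Kinetochores without microtubules generate the spindle checkpoint signal, which restrains the anaphase-promoting complex until all chromosomes are attached. Aurora and Polo-like kinases and CDC25 phosphatases drive entry into mitosis, condensin compacts the chromosomes, and separase cuts the cohesin that joins sister chromatids. Transcripts of many of these genes accumulate in the G2 and M phases of the cell cycle. In total RNA from a culture, fewer cells in those phases and less RNA per cell cannot be told apart.

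Over the whole table the 2% trimmed mean was 500.003 on either array. The Tmem132a probe set read 435.6 with the Tmem132a siRNA and 1825.5 with the control siRNA, or 23.9% of the control level. One free-text label of the Tmem132a siRNA sample carries the control wording, whereas the title and the treatment protocol give the Tmem132a siRNA. Of 14 neuroblastoma markers on the array 12 passed the signal filter, among them Phox2a and Hand2, while Nefl and Nefm did not. By the brightest probe set all 12 were lower with the Tmem132a siRNA, as were 73.2% of the mitotic genes and 48.4% of all genes. The signals of the 14 markers summed to 40665.7 with the Tmem132a siRNA and 49719.3 with the control siRNA. Stmn2 read 12985.8 with the Tmem132a siRNA and 16953.2 with the control siRNA, and Isl1 581.1 with the Tmem132a siRNA and 997.2 with the control siRNA. Some were nearly equal, such as Dbh, with 491.2 with the Tmem132a siRNA and 515.5 with the control siRNA. Th read 117.8 with the Tmem132a siRNA and 122.8 with the control siRNA. Of the marker genes of other cell types, 0 of 6 fibroblast, 0 of 4 glial and 1 of 6 immune genes passed. The summed signal of the brightest probe set per immune marker was 375.4 with the Tmem132a siRNA and 197.1 with the control siRNA, that of the glial markers 263.3 and 146.6, and that of the fibroblast markers 242.9 and 247.1. Laptm5, the immune gene that passed, read 135.2 with the Tmem132a siRNA and 126.6 with the control siRNA. The rest of these 3 sums comes from signals below the filter. The part of the differences of all these markers in the results below was not tested.

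Most of the mitotic genes were slightly lower on the Tmem132a siRNA array. A probe set was kept when its mean signal over both arrays reached 77.25, the median of all probe sets, and each gene was given the average log2 ratio of its kept probe sets, Tmem132a siRNA over control siRNA. By this rule 138 of the 164 probe sets were kept and 71 of the 72 genes had a value. The exception was Plk2, a stress-inducible Polo-like kinase, whose probe sets read 7.1 and 4.9 with the Tmem132a siRNA and 5.3 and 39.4 with the control siRNA. Of the 71 genes 50 had a ratio below 0 (70.4%), compared with 48.2% of all 10678 genes. The median log2 ratio was -0.19, with quartiles of -0.39 and 0.04, and the median of all genes was 0.02. Since the spread of ratios narrows with signal, the 2994 genes whose brightest probe set lay between 997.5 and 3162.5, the quartiles of the set, were also described. Their median was 0.03 and 47.0% of them were below 0. All 8 groups of the set, divided by role, had a median below 0.

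**Figure D1:**
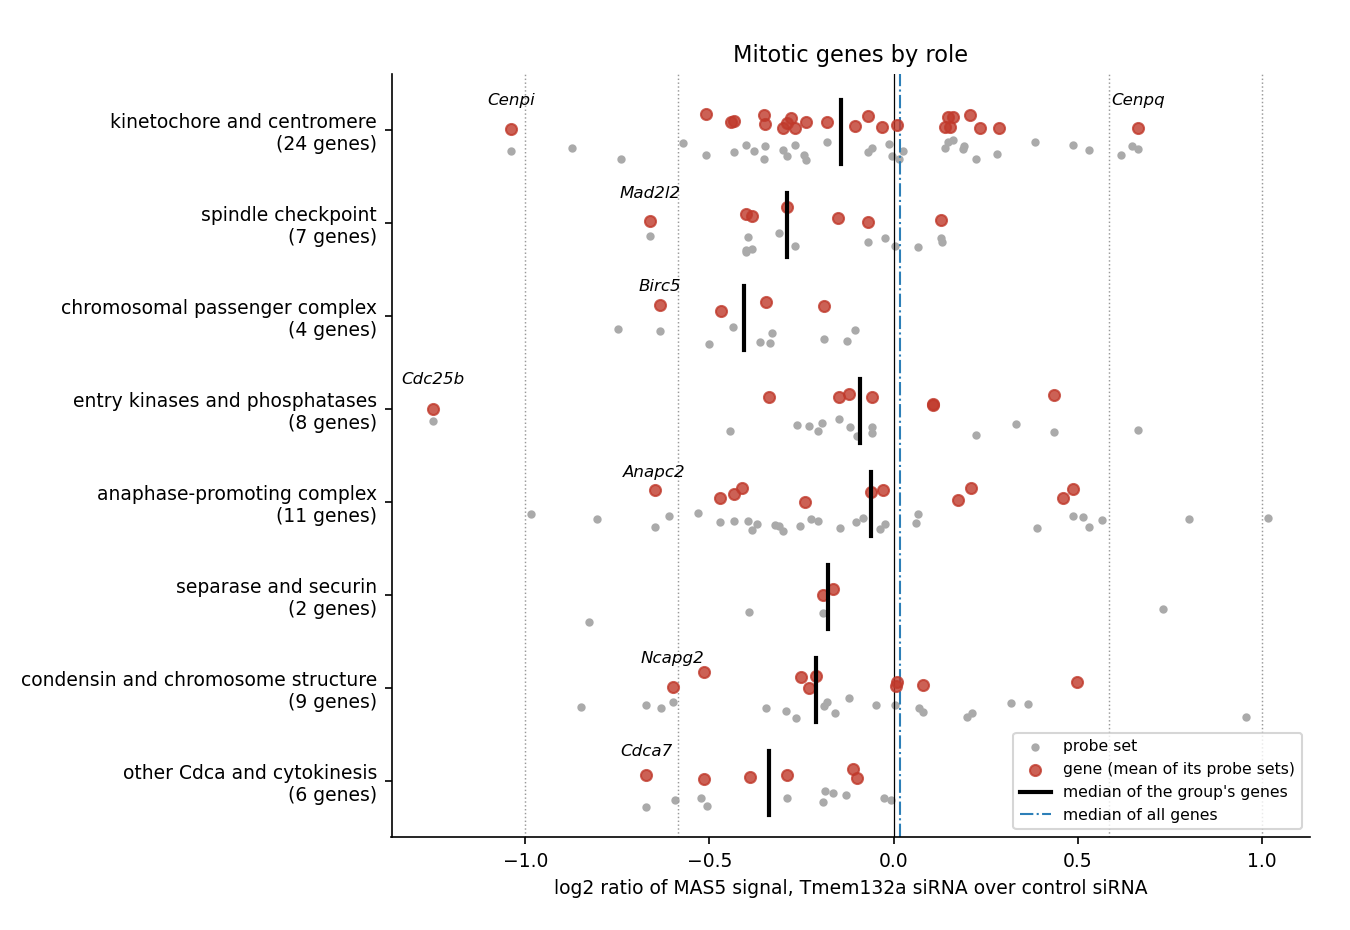
Log2 ratio of MAS5 signal (horizontal axis) for the 71 mitotic genes with a value, grouped by role (rows). Red points are genes, grey points their probe sets, black bars group medians; the dash-dotted line is the median of all genes (0.02) and the dotted lines mark 1.5-fold and 2-fold. All 8 medians lie left of 0, while genes of most groups lie on both sides.

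Large differences were few. At least 2-fold lower were 2 genes (2.82%), where 2.44% of all genes were, and 0 genes were at least 2-fold higher, where 2.1% of all genes were. At least 1.5-fold lower, a log2 ratio of -0.585 or less, were 7 genes (9.86%), against 9.11% of all genes. The counts of lower genes were thus near the background of all genes. At least 1.5-fold higher was 1 gene (1.41%), against 8.82% of all genes. Of the genes of similar signal, 5.18% were at least 1.5-fold lower and 5.41% at least 1.5-fold higher, and 0.735% were at least 2-fold lower. The distribution of the set was shifted in its centre and in its upper part relative to all genes. Its lower tail lay on that of all genes, which include dimmer ones. The shares of the set count all its genes, also those outside the signal range used for the genes of similar signal. Of the lower genes, named below, Cdc25b, Cenpi, Cdca7, Ncapg2 and Birc5 lay outside that range, and Mad2l2 and Anapc2 inside. The lower tails of the set and of the genes of similar signal are therefore not compared like for like. The SD over the genes was 0.34 in the set and 0.49 over all genes, and it was 0.37 over the genes of similar signal.

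**Figure D2:**
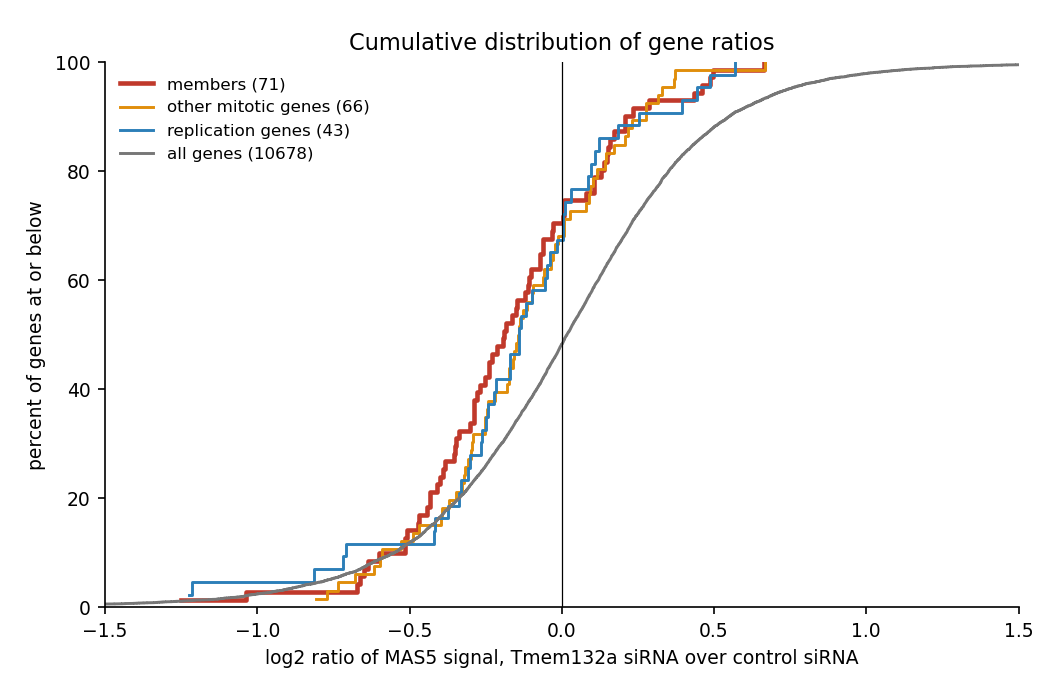
Cumulative distribution of log2 ratios (horizontal axis, drawn from -1.5 to 1.5) as the percent of genes at or below each ratio (vertical axis), for the set (members, 71 genes), further mitotic genes (66), replication genes (43) and all genes (10678). The curves of the 3 cell cycle lists run together and cross 0 at 70.4%, 68.2% and 67.4%, against 48.2% for all genes.

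The 8 genes past 1.5-fold belonged to different machines. Cdc25b, a phosphatase that activates cyclin-dependent kinases at mitotic entry, had a signal of 427.7 with the Tmem132a siRNA and 1016.8 with the control siRNA, a log2 ratio of -1.25 and 2.38-fold lower. Cenpi, a subunit of the inner kinetochore, had a signal of 611.1 with the Tmem132a siRNA and 1254.1 with the control siRNA (log2 ratio -1.04, 2.05-fold lower). With a pseudocount added to the signals in place of a floor, Cenpi was just under 2-fold, at -0.95. Both are lower than any other gene of the set.

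The further genes at least 1.5-fold lower had log2 ratios between -0.67 and -0.60. Cdca7, a MYC and E2F target that acts with the chromatin remodeller HELLS, read 100.4 with the Tmem132a siRNA and 159.9 with the control siRNA. Mad2l2 (REV7), known from translesion synthesis and DNA break repair as well as from inhibition of the anaphase-promoting complex, read 838.8 with the Tmem132a siRNA and 1327.4 with the control siRNA. Anapc2, the cullin subunit of the anaphase-promoting complex, read 1192.2 with the Tmem132a siRNA and 1868.9 with the control siRNA. The SD between probe sets of the same gene was 0.39 on the log2 scale. Any gene at least 1.5-fold lower differs by more than this SD. That these genes do so follows from the cut-off, and says nothing about their own error.

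Birc5 (survivin), which targets Aurora B to centromeres, read 3092.7 with the Tmem132a siRNA and 4803.9 with the control siRNA. Ncapg2, a subunit of condensin II, read 682.1 with the Tmem132a siRNA and 1033.9 with the control siRNA. The single higher gene was Cenpq, an inner kinetochore subunit, with 1212.0 with the Tmem132a siRNA and 764.9 with the control siRNA (log2 ratio 0.66). With the pseudocount, Cdca7 (-0.41) and Ncapg2 (-0.55) were under 1.5-fold. Each of these 8 genes was measured by 1 probe set past the filter, and 0 of the 39 genes with at least 2 such probe sets reached 1.5-fold in their mean.

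**Figure D3:**
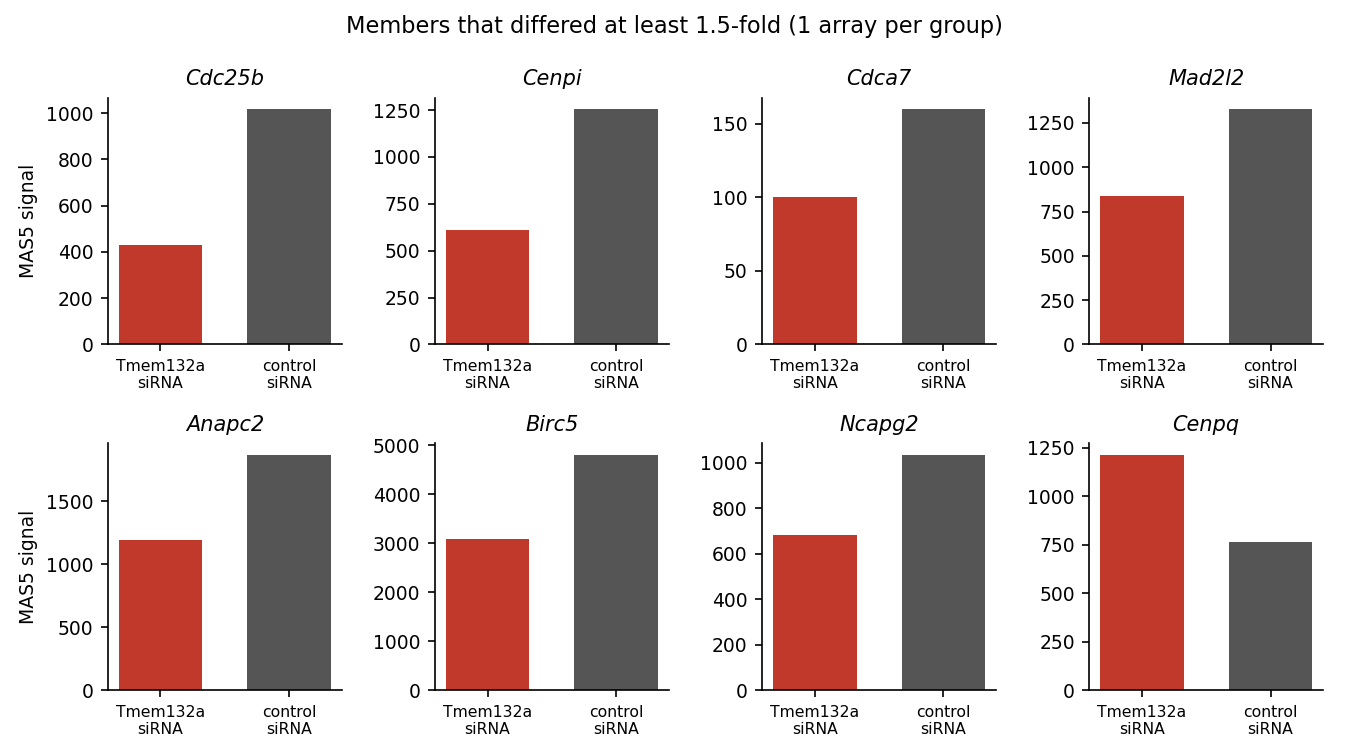
MAS5 signal (vertical axes, linear from 0) of the 8 genes at least 1.5-fold different, with the Tmem132a siRNA array at the left and the control siRNA array at the right of each panel; bars are single arrays with no error. Cenpq is higher on the Tmem132a siRNA array and the other 7 genes are lower.

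Promoter sequences show a feature that the choice by symbol did not use. The cell cycle genes homology region (CHR) is a short element through which the DREAM and MYB-MuvB complexes regulate G2 and M phase genes, and it often lies near the transcription start together with CCAAT boxes, which bind NF-Y. RefSeq promoters of GRCm38.p6 were available for 65 of the 72 genes, and Aurkb, Tpx2, Spc24, Cdca2, Cdc25c, Incenp and Smc4 were not among them. CHR was searched as TTTGAA or TTCGAA and the CCAAT box as CCAAT, both on either strand, from 120 bases before to 30 after the start. The sequences below are 5′ to 3′ on the strand of the gene with motif matches in capitals. Cdc25b and Ncapg2 are shown as lower genes with CHR, Cdca8 and Cdc20 as genes with CHR that differed by less than 1.5-fold, and Cenpi and Cenpq as the lowest kinetochore gene and the highest gene, both without CHR.
Cdc25b, chr2:131186828-131186977, plus strand: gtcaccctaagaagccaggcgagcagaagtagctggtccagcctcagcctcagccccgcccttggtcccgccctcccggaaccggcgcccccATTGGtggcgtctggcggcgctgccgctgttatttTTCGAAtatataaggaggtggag
Ncapg2, chr12:116405316-116405465, plus strand: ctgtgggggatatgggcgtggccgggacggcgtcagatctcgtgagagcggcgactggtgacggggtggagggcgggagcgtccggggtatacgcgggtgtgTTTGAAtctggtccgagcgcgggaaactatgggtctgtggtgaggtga
Cdca8, chr4:124936888-124937037, minus strand: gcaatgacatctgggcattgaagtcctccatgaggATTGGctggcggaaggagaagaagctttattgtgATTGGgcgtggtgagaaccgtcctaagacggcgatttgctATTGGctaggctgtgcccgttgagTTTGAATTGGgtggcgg
Cdc20, chr4:118437314-118437463, minus strand: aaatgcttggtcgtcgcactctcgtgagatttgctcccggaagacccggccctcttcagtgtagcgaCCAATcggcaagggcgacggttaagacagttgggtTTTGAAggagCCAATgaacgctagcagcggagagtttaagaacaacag
Cenpi, chrX:134307964-134308113, plus strand: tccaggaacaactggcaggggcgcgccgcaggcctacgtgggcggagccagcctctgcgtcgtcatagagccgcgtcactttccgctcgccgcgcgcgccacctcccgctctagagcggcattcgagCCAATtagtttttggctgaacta
Cenpq, chr17:40934545-40934694, minus strand: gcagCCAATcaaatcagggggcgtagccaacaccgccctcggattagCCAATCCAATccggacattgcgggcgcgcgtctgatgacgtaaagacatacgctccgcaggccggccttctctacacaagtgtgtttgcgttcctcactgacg

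In Cdc25b the CHR lies just after the start and the reversed CCAAT box before it, whereas in Cdc20 both motifs lie before the start. In Cdca8 the CHR and the last reversed CCAAT box share 1 base. CHR was found in 22 of the 65 genes (33.8%), compared with 7.08% of 8713 genes with a value on the arrays and 10.4% of all 27025 genes with a promoter. CCAAT boxes were found in 32 of the 65 genes (49.2%), compared with 31.1% of the genes with a value and 27.0% of all genes. In the whole window of 300 bases, 47.7% of the set and 15.8% of the genes with a value had CHR. The ratios of genes with and without CHR overlapped. The 22 genes with CHR had a median log2 ratio of -0.13 and 17 were below 0, and the 42 genes with a value and no CHR had a median of -0.20 and 28 were below 0. Of the 7 genes at least 1.5-fold lower, 2 had CHR. A match describes letters in this window, and the lack of one says nothing about the binding of a factor.

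Kinetochore and centromere genes were the largest group. Of 24 genes 15 were below 0 and 9 above, with a median of -0.14. Beside Cenpi and Cenpq, log2 ratios ran from -0.51 for Spc24 to 0.29 for Cenpn. The subunits of single subcomplexes differed in both directions. In the CENP-H, -I, -K and -M assembly, Cenpi at -1.04 stood with Cenpm at -0.35, Cenpk at 0.01 and Cenph at 0.14. Cenph read 1510.1 with the Tmem132a siRNA and 1371.6 with the control siRNA. On its brightest probe set Cenpk stood at -0.24. Apart from Cenpi, the ratios of these genes are smaller than the SD of 0.39 between probe sets of the same gene. Whether the subunit genes of this assembly differ together cannot be told from 1 array per group.

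The CENP-O, -P, -Q and -U group, which recruits Polo-like kinase 1 to the kinetochore, had 3 of 4 genes above 0. Cenpq stood at 0.66, Cenpp at 0.23, Cenpu at 0.15 and Cenpo at -0.44. Cenpu read 2147.1 and 628.2 with the Tmem132a siRNA and 1768.7 and 617.8 with the control siRNA on its probe sets. Cenpo read 64.0 and 208.4 with the Tmem132a siRNA and 117.1 and 210.3 with the control siRNA, so that its ratio rests on the dim probe set. By contrast, all 4 genes of the histone-fold CENP-T, -W, -S and -X group were below 0, between -0.35 (Cenpt) and -0.24 (Cenps), with Cenpx at -0.30 and Cenpw at -0.28. Cenpt read 954.9 with the Tmem132a siRNA and 1219.5 with the control siRNA. Of the pair that reads CENP-A nucleosomes, Cenpn stood at 0.29 and Cenpl at -0.29.

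The NDC80 complex, the main microtubule-binding unit of the outer kinetochore, had 3 of 4 genes below 0. Spc24 read 1057.7 with the Tmem132a siRNA and 1505.1 with the control siRNA (-0.51), and Spc25, its partner at the inner end of the complex, read 1558.3 with the Tmem132a siRNA and 2103.2 with the control siRNA (-0.43). Nuf2 stood at -0.07 and Ndc80 at 0.15, the subunits that contact microtubules, with 1391.7 and 1002.7 with the Tmem132a siRNA and 1461.6 and 904.7 with the control siRNA. The inner pair was therefore lower and the outer pair close to equal. The corona proteins Cenpe, a kinesin, and Cenpf stood at 0.21 and -0.03. Cenpb, which binds a motif in centromeric repeats, stood at -0.18, Cenpv at -0.27, and Cenpj, a centriole protein despite its name, at 0.16.

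Spindle checkpoint genes, among which Mad2l2 was counted, were lower by their mean in 6 of 7 cases, with a median of -0.29. Without Mad2l2, 5 of 6 were below 0, with a median of -0.22. Beside Mad2l2, Mad2l1, whose product binds and inhibits CDC20, had signals of 5173.7 with the Tmem132a siRNA and 6830.5 with the control siRNA (-0.40). Mad1l1, its kinetochore anchor, read 532.3 with the Tmem132a siRNA and 694.2 with the control siRNA (-0.38). Bub1b (BUBR1), a component of the checkpoint effector, read 1539.7 and 1371.2 with the Tmem132a siRNA and 1909.8 and 1650.8 with the control siRNA (-0.29). These genes were lower on each of their kept probe sets. Bub3 stood at -0.15 over 5 probe sets, but this mean rests on dim ones (-0.40 and -0.39). Its brightest probe set read 7473.8 with the Tmem132a siRNA and 7139.7 with the control siRNA (0.07). With a filter at the 75th percentile of signal Bub3 stood at 0.02. Ttk (MPS1), the kinase at the top of the pathway, stood at -0.07. Bub1, the kinase that recruits the checkpoint proteins, was the only one with a mean above 0 (0.13). Its probe sets read 3813.8 and 207.2 with the Tmem132a siRNA and 3480.9 and 189.7 with the control siRNA.

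All 4 genes of the chromosomal passenger complex, which corrects faulty attachments and directs cytokinesis, were below 0, with a median of -0.41. After Birc5 (-0.64), Incenp, the scaffold, stood at -0.47, and its 4 kept probe sets ranged from -0.75 to -0.33. The brightest of them read 4707.4 with the Tmem132a siRNA and 5916.7 with the control siRNA. Aurkb, the kinase, stood at -0.35, with 1199.9 and 795.2 with the Tmem132a siRNA and 1699.6 and 906.6 with the control siRNA. Cdca8 (borealin) stood at -0.19, with 3980.0 with the Tmem132a siRNA and 4282.1 with the control siRNA on its brightest probe set. Every kept probe set of these genes was below 0, and 1 of the 4 genes reached 1.5-fold.

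Kinases and phosphatases of mitotic entry differed little apart from Cdc25b. The 8 genes with a value had a median of -0.09 and 5 were below 0. Plk1, the main mitotic Polo-like kinase, read 1416.9 with the Tmem132a siRNA and 1477.1 with the control siRNA (-0.06), and Aurka, the spindle pole kinase, 1966.3 with the Tmem132a siRNA and 2179.2 with the control siRNA (-0.15). Cdc25c stood at -0.34 and Cdc25a, which also acts at the G1 to S transition, at 0.11. The CDC25 genes thus did not share the size of the Cdc25b difference. Tpx2, an activator of Aurora A, stood at 0.11 and Plk4, which controls centriole duplication, at -0.12. Plk3, a stress-responsive kinase, was the highest at 0.44, with 363.2 with the Tmem132a siRNA and 268.5 with the control siRNA.

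Genes of the anaphase-promoting complex, the ubiquitin ligase that triggers anaphase, were spread in both directions, with 7 of 11 below 0 and a median of -0.06. Anapc2, the cullin, stood at -0.65 and its RING partner Anapc11 at -0.24. Anapc5, a scaffold subunit, had 6 probe sets that all lay between -0.53 and -0.31, the brightest with 7548.7 with the Tmem132a siRNA and 9929.3 with the control siRNA. Anapc13 read 3673.4 with the Tmem132a siRNA and 4960.9 with the control siRNA (-0.43). The higher subunits were Anapc7 (0.49) and Anapc4 (0.46). Anapc7 read 3309.3 with the Tmem132a siRNA and 2363.6 with the control siRNA, and Anapc4 3813.5 with the Tmem132a siRNA and 2638.7 with the control siRNA on its brighter probe set. Subunits of one complex thus lay on opposite sides of 0, and for Anapc4 and Anapc5 all kept probe sets shared the sign. Anapc10 (-0.03) and the coactivator Cdc20 (-0.06) were close to equal, Cdc20 with 4877.9 with the Tmem132a siRNA and 5231.8 with the control siRNA. Espl1 (separase) stood at -0.19, with 1839.5 with the Tmem132a siRNA and 2101.5 with the control siRNA.

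Condensin and chromosome structure genes had a median of -0.21, with 5 of 9 below 0. Smc2 and Smc4 encode the ATPase pair shared by both condensins. Smc4 was above 0 on all 3 probe sets (0.21 to 0.96, mean 0.50), with 4799.9, 3753.5 and 1020.4 with the Tmem132a siRNA and 4143.7, 1933.3 and 818.0 with the control siRNA. The brightest Smc2 probe set read 3496.9 with the Tmem132a siRNA and 3337.0 with the control siRNA, and with its dim ones the gene stood at -0.23. Of condensin I, Ncaph stood at -0.21, Ncapg at 0.0049 and Ncapd2 at 0.0085, but Ncapg and Ncapd2 each had a brighter probe set below 0 (-0.19 and -0.35) and a dimmer one above 0 (0.20 and 0.36). Of condensin II, Ncapg2 stood at -0.60 and Ncaph2 at -0.25, while Ncapd3, its further subunit from the list of other mitotic genes, stood at 0.23. Mki67, the proliferation marker Ki-67 that coats mitotic chromosomes, read 5019.8 with the Tmem132a siRNA and 4752.3 with the control siRNA (0.08). Top2a, the topoisomerase that untangles sister chromatids, stood at -0.52, but its bright probe set read 9488.3 with the Tmem132a siRNA and 10765.6 with the control siRNA (-0.18) and its dimmer one 1143.6 with the Tmem132a siRNA and 2058.3 with the control siRNA (-0.85).

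The remaining 6 genes were all below 0, with a median of -0.34. Anln (anillin), a scaffold of the cytokinetic ring, stood at -0.51, and its probe sets read 2484.8 and 186.7 with the Tmem132a siRNA and 3568.1 and 265.2 with the control siRNA. Those probe sets gave almost the same ratio, -0.52 and -0.51, despite very different signals. Cdca2, which brings a phosphatase to chromatin at mitotic exit, stood at -0.39 and Cdca3, a trigger of mitotic entry, at -0.29. Cdca5 (sororin), a protector of cohesion, stood at -0.11 and Cdca4 at -0.10.

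Probe sets of one gene gave a technical measure of error within one pair of RNA samples. In the 39 genes of the set with at least 2 kept probe sets, the SD of probe-set log2 ratios about the gene mean was 0.38, and in all 5072 such genes 0.39. A gene at 1.5-fold, 0.585 on the log2 scale, thus lies above that SD and under 2 of them. In 17 of the 39 genes all kept probe sets were below 0, in 6 all were above 0, and in 16 they lay on both sides. Of the 138 kept probe sets 97 were below 0. The matching shares over all kept probe sets and over the 5072 genes were not counted. By gene, 48.2% of all genes were below 0.

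In 7 genes the kept probe sets disagreed in sign by more than 1 on the log2 scale. Cenpa, the centromeric histone, read 1209.6 with the Tmem132a siRNA and 2021.6 with the control siRNA on its brighter probe set (-0.74), but 176.0 with the Tmem132a siRNA and 122.0 with the control siRNA on its dimmer one (0.53). Pttg1 (securin), the inhibitor of separase, read 7408.2, 1185.4 and 101.0 with the Tmem132a siRNA and 9732.3, 2101.6 and 60.9 with the control siRNA (-0.39, -0.83 and 0.73). Anapc15, which promotes turnover of the checkpoint complex, read 732.9, 385.3, 187.8 and 129.0 with the Tmem132a siRNA and 1280.1, 762.0, 286.8 and 90.4 with the control siRNA. In these 3 genes only the dimmest kept probe set was higher, so that a filter at the 75th percentile of signal moved them to -0.74 (Cenpa), -0.61 (Pttg1) and -0.89 (Anapc15), against means of -0.11, -0.16 and -0.47.

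Anapc1, the largest scaffold subunit, was higher on its brightest probe set, with 2199.7 with the Tmem132a siRNA and 1263.3 with the control siRNA (0.80), and lower on another, with 258.4 with the Tmem132a siRNA and 323.2 with the control siRNA (-0.32). Cenpp read 913.1, 775.3 and 145.0 with the Tmem132a siRNA and 595.8, 553.7 and 191.3 with the control siRNA. Its brighter probe sets were both higher (0.62 and 0.49). Cenpk read 2725.5 with the Tmem132a siRNA and 3227.8 with the control siRNA on its brightest probe set (-0.24) and 221.2 with the Tmem132a siRNA and 141.4 with the control siRNA on another (0.65). Anapc16 differed beyond 1.5-fold only on a probe set of 134.2 with the Tmem132a siRNA and 66.4 with the control siRNA (1.01), and its brightest one stood at 0.06.

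**Figure D4:**
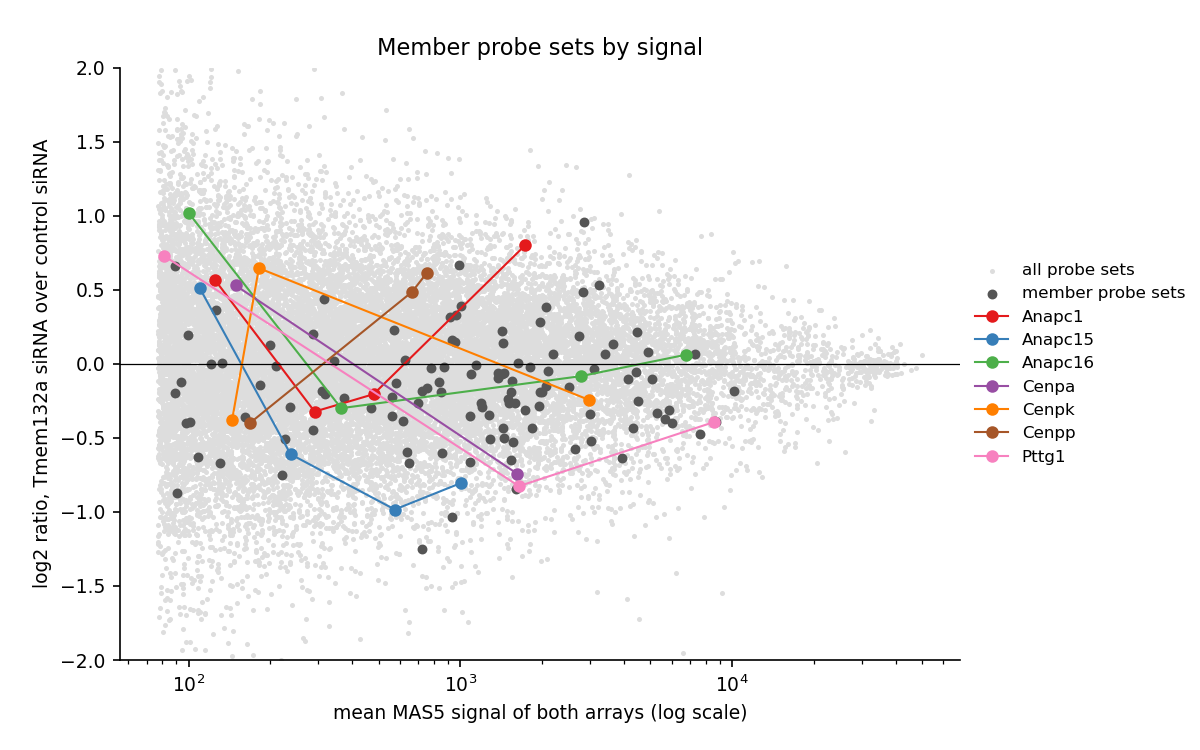
Log2 ratio (vertical axis, drawn from -2 to 2, which leaves out 85 other probe sets) against mean MAS5 signal of both arrays (horizontal axis, log scale) for all kept probe sets (light grey) and those of the set (dark grey). Coloured lines join the probe sets of the 7 genes that disagreed in sign by more than 1; for Cenpa, Pttg1 and Anapc15 the probe set above 0 is the dimmest one.

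Mitotic genes outside the set had a like distribution. Of 66 with a value 45 were below 0 (68.2%), with a median of -0.14. At least 1.5-fold lower were 7 (10.6%), against 9.11% of all genes, and 1 was at least 1.5-fold higher (1.52%), against 8.82%. By 2-fold 0 differed, where 2.44% of all genes were lower and 2.1% higher. Kif20a, a kinesin of cytokinesis, was the lowest (-0.81), with 400.1 with the Tmem132a siRNA and 699.9 with the control siRNA. Knl1, the scaffold on which checkpoint proteins assemble, stood at -0.77, Ccnb2, a mitotic cyclin, at -0.68, and Tacc3 at -0.74 over probe sets from -1.53 to -0.09. Oip5, which helps deposit CENP-A, was the highest (0.67), with 784.2 with the Tmem132a siRNA and 493.9 with the control siRNA. Cdk1, the mitotic kinase, stood at -0.16.

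Replication genes were likewise mostly below 0, with 29 of 43 (67.4%) and a median of -0.14. At least 1.5-fold lower were 5 (11.6%), of which 2 were 2-fold lower (4.65% of the list), and 0 were 1.5-fold higher. Of all genes 9.11% were 1.5-fold lower, 2.44% 2-fold lower and 8.82% 1.5-fold higher. Tk1, read by 1 probe set, stood at -1.21, with 1091.7 with the Tmem132a siRNA and 2531.6 with the control siRNA, and Pold1 stood at -0.81, Mcm4 at -0.72 and Tyms at -1.23 over probe sets from -2.03 to -0.42. The share below 0 and the median of the mitotic set were thus close to those of genes that act in S phase. The difference between the lists was not tested.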

How the data were processed

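Total RNA of 2 Neuro2a samples, isolated with Trizol and biotin-labelled, was hybridised to 1 array each, per the labels. The deposited table holds 1 linear signal intensity per probe set and array, which the authors obtained with MAS5, per the submitters' processing notes and the series design; its version and scaling are not given in the sources used here. Groups were taken from sample titles.

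Computation used Python 3.11.15, numpy 2.4.6, pandas 2.3.3, statsmodels 0.14.6 and matplotlib 3.10.9. After 64 Affymetrix controls were left out, the arrays were brought to a common 2% trimmed mean. Gene names came from GEO's annotation of the array, which gave 1 symbol for 34945 probe sets, several for 932 and none for 9160. Only the first were used, and 0 symbols changed through the mouse gene table. Probe sets with a mean signal at or above the 50th percentile (77.25) were kept, which left 22519. Signals under the 20th percentile (14.5) were set to it, and 0 kept probe sets of the set were at that floor. Counts of genes use 2-fold and 1.5-fold sizes, with no p-value. Values are given for genes past 1.5-fold, for those whose probe sets disagree and for examples of each role; of the comparison lists, up to 4 past 1.5-fold at each end. Cdk1, Ncapd3 and the genes of the closing observations were chosen after their values were seen. The procedure was tested on simulated data in which the planted differences were 2-fold or more. It was not tested on planted shifts as small as the median of the set. The genes, lists and sizes were chosen with earlier results of these data known. Alternatives were other scalings (none, median, quantile, loess with span 0.3), no filter, a filter at 462.8 (75th percentile), a pseudocount of 79.2 or nothing in place of the floor, the brightest or median probe set, and no x, s or a probe sets. Coordinates are given for promoters only, on GRCm38.p6, and not for probe sets, since the array annotation names no build.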

Additional observations from a re-analysis of the deposited data

How the results depend on the processing

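The median of the mitotic genes was below 0 in all 11 alternatives, between -0.21 and -0.13, and its difference from the median of all genes lay between -0.23 and -0.15. It was closest to 0 without x, s and a probe sets, where 59 genes had a value. With no filter 11 of 72 genes were at least 1.5-fold lower and 2 higher. Of all genes 12.1% were then lower and 16.0% higher, up from 9.11% and 8.82%. The condensin median was 0.0049 and the kinetochore median -0.032 with no filter. Without x, s and a probe sets 1 gene was 2-fold lower, since Cdc25b (like Birc5) then had no value. In that setting 2 were 1.5-fold higher, where 9.26% of all genes were. The medians of the anaphase-promoting complex (0.021), entry kinases and phosphatases (0.023) and separase with securin (0.27) were above 0 there. Pttg1 (securin) then kept only its dimmest probe set, with 101.0 with the Tmem132a siRNA and 60.9 with the control siRNA (0.73). The median of separase with securin also moved with the 75th percentile filter (-0.40), the brightest probe set (-0.29) and the median probe set (-0.29). With the pseudocount 1 gene was 2-fold lower, and by the brightest probe set 3 were 1.5-fold higher, where 9.29% of all genes were. The other 129 values of counts and medians stayed within 1.5 times or 0.1, and of 763 single-gene values 17 moved by more than 0.39. The passenger complex, checkpoint and remaining Cdca medians were below 0 throughout. No paired analysis was possible because each group had 1 array. The array number and, for dim probe sets, signal near background limit these values.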

Other observations

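Mitotic motors and cohesin among the further mitotic genes gave values on both sides of 0. Of 10 mitotic kinesins 6 were below 0, with a median of -0.14. Kif2c, which depolymerises microtubules at centromeres, stood at -0.62 and its 3 probe sets ranged from -0.69 to -0.55, with 1121.2 with the Tmem132a siRNA and 1636.6 with the control siRNA on the brightest. Kif11, the motor that separates spindle poles, stood at -0.03 and Kif18a, which limits chromosome oscillation, at 0.31. Of 8 genes of cohesin and its regulators 6 were below 0, from -0.29 for Rad21, the subunit that separase cuts, to 0.28 for Smc3, and 0 reached 1.5-fold.

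Of 7 transcriptional regulators of the G2 and M programme 4 were below 0. Foxm1, which activates late cell cycle genes, stood at -0.53, and its 3 probe sets ranged from -0.63 to -0.48, with 522.0 with the Tmem132a siRNA and 726.1 with the control siRNA on the brightest. Mybl2 (B-Myb) stood at -0.25 and E2f1 at -0.37, while the MuvB subunits Lin9, Lin54 and Lin52 stood at 0.37, 0.22 and 0.03. The 2 probe sets of Lin54 disagreed in sign (-0.41 and 0.84). The brighter one was lower, with 984.6 with the Tmem132a siRNA and 1306.0 with the control siRNA. Ccna2, a cyclin of S and G2 phase, stood at -0.49, with 2786.6 with the Tmem132a siRNA and 4558.3 with the control siRNA.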
